A study of Vanessa cardui and Junonia coenia with 16 samples.

Results

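The hindwings of painted lady butterflies (Vanessa cardui) labelled as optix knockouts were compared with the forewings of the same genotype. The members were the 4 melanin-stage libraries that carry these labels, knockout forewing 1 and 2 and knockout hindwing 1 and 2, out of 16 samples in the series. Of 74995 assembly rows in the deposited table, 31508 were above 0 in at least 1 of the 4 libraries and 17400 had a mean of at least 1 FPKM over them. FPKM (fragments per kilobase of transcript, scaled to a common sequencing depth) is a level per transcript length and library total. The 17400 rows were tested, and 57595 rows fell below the minimum. A row is a sequence of a transcriptome assembly, and rows that share the c number of their identifier form a component, here used as a coarser unit by summing FPKM over its rows. Of the components, 13463 had a mean summed FPKM of at least 1.

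In butterflies optix is a transcription factor gene that sets colour in wing scales. It favours the orange to red ommochromes over the dark melanins, and it is also known for effects on the structural colour of scales. Forewings and hindwings are built from serially homologous discs, and in insects the homeotic gene Ultrabithorax sets hindwing identity apart from forewing identity. A comparison of both wings labelled as optix knockouts asks which transcripts still differ between them late in pupal life, when scales take on pigment and harden their cuticle.

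All 4 compared libraries share the optix knockout, which the labels describe for both wings as knockout with large defects. The size of the defects and the mosaic wings named in the labels mean that edited and unedited cells can lie side by side in a wing, and the share of edited cells was not measured. Each group had 2 libraries, described as biological replicates, and the labels are silent on whether equal numbers mark wings of 1 animal. The comparison also drew on 4 other forewings. Wild-type forewing 1 and 2 came from the same melanin stage, and a pair of forewings came from 1 knockout individual at the earlier ommochrome stage, 1 wing with small and 1 with large defects. Animals were reared at 27 °C, and poly(A) RNA was sequenced as 36 bp paired-end reads. No labelled wild-type hindwing of this species was among the samples, and columns of the table with names of that form but no labelled sample were not used, so a difference between the wings cannot be told apart from a difference in how each wing responds to the knockout. None of the row identifiers matched the reference table (0 of 15000 genes), so optix, Ultrabithorax, pigment enzymes and tissue markers could not be looked up, and the labels were not checked against them. Rows are named by identifier, and no sequence is shown. In whole wings, fewer cells of a type and less RNA per cell cannot be told apart.

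The 4 libraries were not equally alike, and among the more abundant rows the 2 hindwings were less alike than hindwing 1 and the forewings. Among 830 abundant rows (100 FPKM or more on average), 28 differed by at least 1 log2 unit between the knockout forewings. Between hindwing 1 and the forewings 27 and 37 did, but 146 differed between hindwing 1 and hindwing 2. Hindwing 2 differed from forewing 1 in 170 and from forewing 2 in 245 of these rows. Pearson's r of log2(FPKM + 1) across the 3348 rows averaging 20 FPKM or more, which are not independent replicates, was 0.945 between the forewings, 0.957 and 0.941 between hindwing 1 and the forewings, and 0.877 between the hindwings. Hindwing 2 correlated with the forewings at 0.861 and 0.817. Over all tested rows the hindwings did not stand out in this way. There r was 0.852 between the forewings, 0.876 and 0.891 between hindwing 1 and the forewings, and 0.874 between the hindwings. For hindwing 2 and the forewings it was 0.836 and 0.818. The wild-type forewings were also unlike each other among abundant rows, with 120 of 830 apart by at least 1 log2 unit. The values of each hindwing, or counts without hindwing 2, are therefore given with the main results below. Forewing 1 was the shallowest library. The value of 1 read, estimated from rows under 0.6 FPKM, was 1.92 times that of forewing 2 and of hindwing 1 and 1.82 times that of hindwing 2, while the other libraries were within 1.07 times of each other. There were 765 tested rows at 0 in forewing 1 alone, 176 in forewing 2 alone, 225 in hindwing 1 alone and 552 in hindwing 2 alone.

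**Figure D1:**
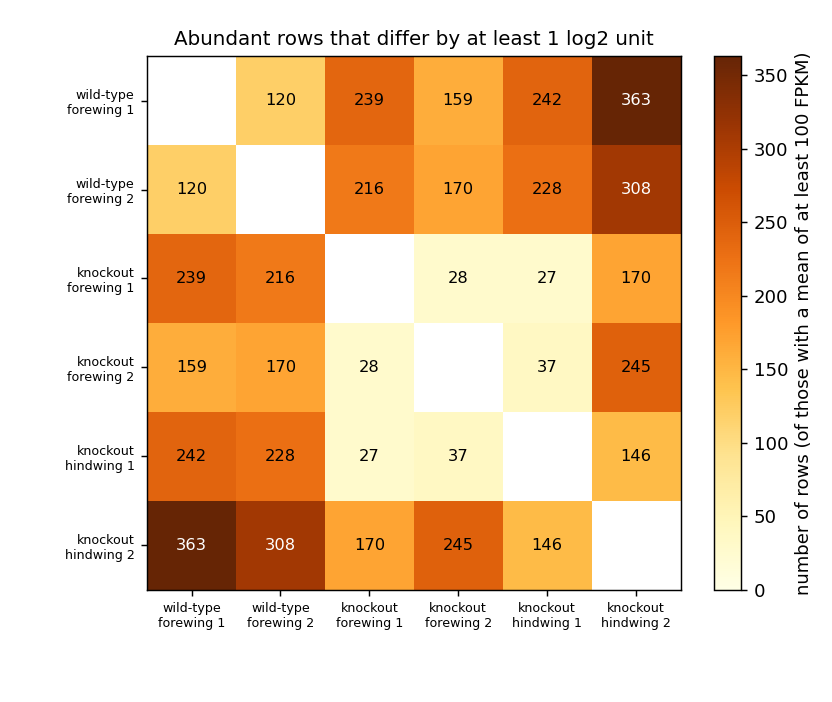
Number of abundant rows (mean of at least 100 FPKM over the 4 knockout libraries, 830 rows) that differ by at least 1 log2 unit of FPKM + 1 between each pair of the 6 melanin-stage libraries. Both axes list the libraries and colour gives the count. The cells joining hindwing 1 to the knockout forewings hold 27 and 37 rows, and those joining hindwing 2 to the knockout forewings hold 170 and 245.

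No row passed the test between the wings. The limma fit over the 6 melanin-stage libraries called 0 of 17400 rows at an adjusted p under 0.05 (0%), with a smallest adjusted p of 0.229. At an unadjusted p under 0.05, 421 rows (2.42%) were higher and 769 rows (4.42%) were lower in the hindwing, 1190 in all where 870 would be expected with no difference anywhere. At an unadjusted p under 0.01 there were 100 higher and 182 lower rows, against 174 expected in all. Component sums gave 0 calls of 13463 (0%, smallest adjusted p 0.247, limma), with 337 components (2.5%) higher and 584 (4.34%) lower at an unadjusted p under 0.05. Without hindwing 2 the fit also gave 0 calls, with 872 of 17750 rows and 671 of 13676 components at an unadjusted p under 0.05. Without hindwing 1 it gave 0 calls and 2504 of 17736 rows at that p, 811 higher and 1693 lower. Without forewing 2 it gave 227 calls, 9 higher and 218 lower in the hindwing, all with adjusted p between 0.043 and 0.049. Of these 227 rows, 215 were at 0 in both hindwings and both wild-type forewings, so the spread rested on identical zeros, and 197 were at 0 in the omitted forewing 2 as well.

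The excess of lower rows depended on how the libraries were scaled. The median difference over all rows was -0.10 log2 units, and median-of-ratios scaling moved it by 0.11 and quantile normalization by 0.14. The share of higher rows among those at an unadjusted p under 0.05 went from 35.4% as deposited to 44.7% and 49.1%. Differences below are on the deposited scale and are to be read relative to that median. The share of total FPKM in the 10 most abundant rows was 36.5% ± 2.61 (SD, n = 2) for the forewings and 35.9% ± 1.79 (SD, n = 2) for the hindwings. An exact two-sided permutation test gave p = 1 for that share, and 2 against 2 libraries cannot give a p below 0.333.

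**Figure D2:**
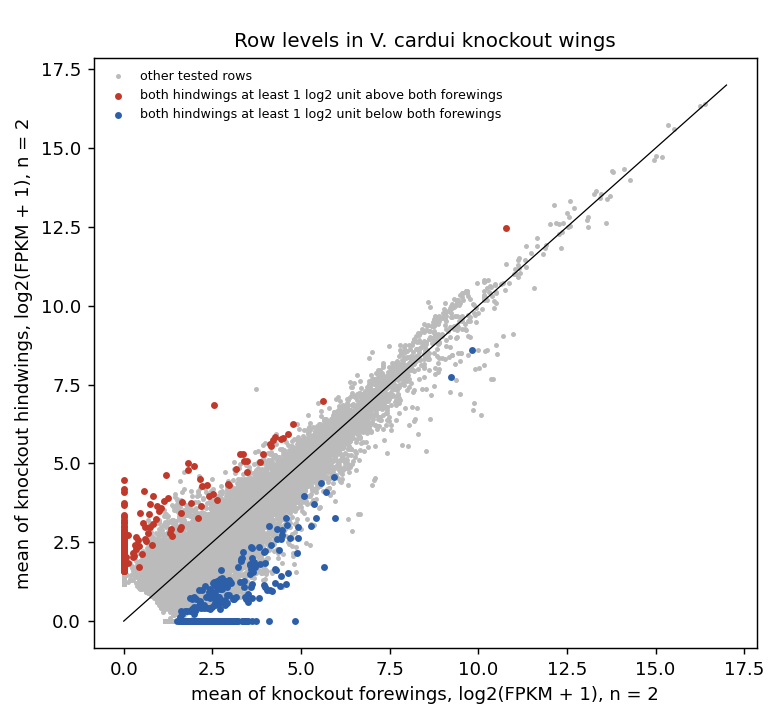
Mean log2(FPKM + 1) of the 2 knockout hindwings (vertical axis) against that of the 2 knockout forewings (horizontal axis) for the 17400 tested rows. The line marks equal levels. Red points are the 202 rows and blue points the 322 rows in which every hindwing was at least 1 log2 unit above or below every forewing, and most lie at low levels.

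The 10 most abundant components, with 35.8% to 39.6% of total FPKM in each knockout library, differed between the wings by -0.47 to 0.50 log2 units and did not pass the test (adjusted p of at least 0.747, limma). The wings overlapped in 5 of them, 3 were higher and 2 lower in both hindwings than in both forewings. Over all tested components 16.6% were higher and 20.8% lower in that sense. The most abundant component, c21297, was at 89482 and 83953 summed FPKM in the forewings and at 78035 and 96810 in the hindwings. The difference was 0.00 log2 units (SE 0.45). The component c44942 had the largest difference of the 10, with 14605 and 13601 in the forewings and 18498 and 21528 in the hindwings (0.50 log2 units, SE 0.33, adjusted p = 0.747, limma). The component c55387 was at 101257 and 58785 in the knockout forewings and at 75065 and 90136 in the hindwings. The wings overlapped in c21297 and in c55387, and for c55387 both stood above the 7813 and 448 summed FPKM of the wild-type forewings.

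How the wings differed by level depended on the measure. Of rows averaging 1 to 5 FPKM, 7.48% were at an unadjusted p under 0.05, compared with 6.65% at 5 to 20 FPKM, 5.997% at 20 to 100 FPKM and 4.46% at 100 FPKM or more. The median absolute difference between the wing means was 0.47 log2 units in the lowest class. There it was 0.61 between the 2 forewings and 0.51 between the 2 hindwings. In the highest class these values were 0.32, 0.25 and 0.37. The wing value compares means of 2 libraries, which vary less than the single libraries compared within a wing. The values therefore do not show whether the wings differed more or less than replicates. In the lowest class 36.2% of rows were at 0 in at least 1 of the 4 libraries. The share of rows whose wings did not overlap, whatever the size of the difference, ran the other way, at 34.5%, 38.8%, 41.9% and 50.5% from the lowest class to the highest. Over all tested rows 16% did not overlap and were higher in the hindwing, and 21.8% were lower. With no difference between the wings and no ties, 2 against 2 libraries would not overlap in a share of 0.333 of rows, both directions together. In the highest class 276 of 830 rows were higher and 143 lower.

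A stricter description, which does not use the estimated spread, counted rows in which every hindwing stood at least 1 log2 unit above or below every knockout forewing. There were 202 higher rows (1.16%) and 322 lower rows (1.85%). Their median differences were 2.08 and -1.999 log2 units. Only 17 of the higher and 11 of the lower rows had a mean of at least 20 FPKM, and 2 and 2 a mean of at least 100 FPKM. Of the higher rows 47, and of the lower rows 98, were above 0 in all 4 libraries. Without hindwing 2, 525 rows were higher and 682 lower by the same rule, which is easier to meet with 1 hindwing. The wild-type forewings, which the rule did not use, were on the side of the knockout forewings by at least 1 log2 unit in 80 of 202 higher rows (39.6%) and 171 of 322 lower rows (53.1%). They were nearer to the knockout forewings than to the hindwings in 133 and 228 rows, and nearer to the hindwings in 69 and 94. Both counts reuse the hindwing values that chose the rows, so they are not separate evidence of a wing difference.

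Where a component held more than 1 tested row, many of these differences were smaller or absent in its sum. By the same rule 167 components (1.24%) were higher and 239 (1.78%) lower in the hindwing, or 426 and 503 without hindwing 2. Of the separated rows, 54 higher and 106 lower ones lay in components with more than 1 tested row. In those, the sum was separated in the same direction for 12 (22.2%) and 15 (14.2%). The median difference of the higher rows was 2.01 log2 units and that of their component sums 0.91, and for the lower rows the medians were -1.91 and -0.75. The sum had the opposite sign for 4 and 9 rows. These rows were chosen for large differences and the others in their components were not. Smaller differences in the sums therefore follow in part from the choice. Of the 2609 components with more than 1 tested row, 0 held both a row separated upward and a row separated downward.

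**Figure D3:**
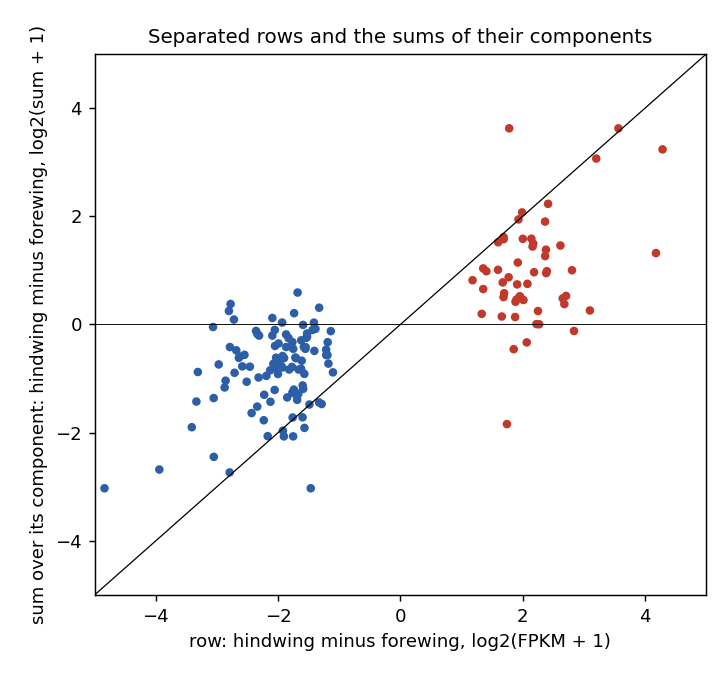
Difference between hindwing and forewing of each separated row that shares its component with another tested row (horizontal axis, log2(FPKM + 1)) against the difference of the summed FPKM of its component (vertical axis, log2(sum + 1)). Red points are the 54 higher rows and blue points the 106 lower rows. The diagonal marks equal differences, and most points lie between it and the horizontal line at 0.

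Some rows were listed at 0 in both libraries of one wing and at 1 FPKM or more in both of the other. There were 129 rows at 0 in the forewings (0.741%) and 169 at 0 in the hindwings (0.971%). Without hindwing 2 the counts were 280 and 410. Their median levels in the other wing were 3.59 and 3.76 FPKM, the highest were 29.4 and 28.2 FPKM, and 5 and 7 rows had a mean level there of at least 10 FPKM. An exact 0 can be a failed estimate, so the values of the other forewings, which the choice did not use, are given beside these. The smallest value above 0 in any of the 8 libraries had a median of 2.10 FPKM for rows at 0 in the forewings. It was 1.85 FPKM for rows at 0 in the hindwings and 2.97 FPKM over all tested rows. How many reads such a value holds was not counted, so a 0 here may stand against few reads. Of the 129 rows at 0 in the knockout forewings, 42 (32.6%) were also at 0 in both wild-type forewings and 36 (27.9%) were at 1 FPKM or more in both. Of the 169 rows at 0 in the hindwings, 92 (54.4%) were at 1 FPKM or more in both wild-type forewings. Over all tested rows 4.32% were at 0 and 81.8% at 1 FPKM or more in both wild-type forewings. The rows at 0 in all 4 other forewings as well numbered 24 of 129 (18.6%) and 8 of 169 (4.73%), against 2.10% of all tested rows. The shares over all tested rows are not matched for level. Rows at 0 in at least 1 of the 4 compared libraries made up 36.2% at 1 to 5 FPKM and 0% at 100 FPKM or more. For rows with other tested rows in their component, the component sum was separated in the same direction in 4 of 29 and 4 of 42 cases.

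The rows with the smallest p of the wing comparison were of this kind. Identical zeros in one wing add nothing to the estimated spread, so the small p rests in part on them. The row c48436_g1 was at 0 in both knockout forewings. It stood at 9.35 and 9.22 FPKM in the hindwings, 7.85 and 7.47 FPKM in the wild-type forewings and 9.49 and 7.47 FPKM in the mosaic forewings. The hindwings thus stood with the wild-type and mosaic forewings, and the knockout forewings alone were at 0 (difference 3.36 log2 units, SE 0.28, adjusted p = 0.229, limma). The row c61670_g1 was above 0 in the hindwings alone, at 16.5 and 15.4 FPKM, and at 0 in all 6 forewings. The row c62353_g1 was the reverse. It was at 13.8 and 10.7 FPKM in the knockout forewings, 18.8 and 14.4 FPKM in the wild-type forewings and 5.34 and 12.6 FPKM in the mosaic forewings, and at 0 in both hindwings (difference -3.72, SE 0.30, adjusted p = 0.229, limma). It is the only row of its component.

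The row c20176_g2, at 0 in both hindwings, shares its component with 1 other row that was present there. The component c20176 was at 47.5 and 35.3 summed FPKM in the knockout forewings, at 5.67 and 2.96 in the hindwings, at 12.8 and 6.09 in the wild-type forewings and at 37.4 and 37.5 in the mosaic forewings. The knockout forewings were with the mosaics, and the wild-type forewings lay between them and the hindwings. The row differed by -4.84 log2 units and the component by -3.03 (SE 0.45, adjusted p = 0.335, limma). The row c18399_g2 was at 19.2 and 15.2 FPKM in the hindwings and at 0 in the knockout forewings, yet at 11.02 and 0 FPKM in the wild-type forewings. Its component, with another tested row, differed by 1.32 log2 units where the row differed by 4.18.

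Few components set the hindwings apart from forewings of every kind. In 38 components (0.282%) both hindwings stood at least 1 log2 unit above all 6 forewings, and in 57 (0.423%) at least 1 log2 unit below them. This description was added after the data were seen. The corresponding counts of rows were 44 (0.253%) and 77 (0.443%). Of the 38 components, 17 were at 0 in all 6 forewings and 8 were above 0 in all 8 libraries. Of the 57, 34 were at 0 in both hindwings and 15 were above 0 in all 8. The median level over the 4 compared libraries was low, at 2.55 summed FPKM for the 38 and 3.22 for the 57. With hindwing 2 left out, 140 components were above and 178 below. The contrast of the hindwings with the mean of knockout and wild-type forewings gave 0 called rows (0%, smallest adjusted p 0.0755, limma) and 0 called components (0%, smallest adjusted p 0.0663, limma). At an unadjusted p under 0.05, 1359 rows were higher and 2136 lower in that contrast. These were 3495 of 17400 rows, where 870 would be expected with no difference anywhere. The hindwings were all knockouts while the forewing mean included the wild type. Wing and genotype can therefore not be told apart in that contrast, and its larger count is not a stronger wing difference. The excess of lower rows was not stable, with 921 higher and 943 lower without hindwing 2, 1836 and 1825 after quantile normalization, and 1077 and 915 among rows averaging 5 FPKM or more. It shares the hindwings and the knockout forewings with the first contrast and is not separate evidence.

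The most abundant of the components above all forewings was c24256. It was at 7733 and 4384 summed FPKM in the hindwings, at 2111 and 1803 in the knockout forewings, at 490 and 1512 in the wild-type forewings and at 1100 and 1282 in the mosaic forewings. No forewing overlapped the hindwings. The difference between the knockout wings was 1.58 log2 units (SE 0.60, adjusted p = 0.721, limma). Nearly all of the sum came from 1 row, c24256_g6, which held 7509 and 4256 FPKM in the hindwings against 1931 and 1594 FPKM in forewings of the same genotype. The other tested rows of the component did not share the difference, and c24256_g5 held 148 and 170 FPKM in forewings of that genotype and 187 and 117 FPKM in hindwings, so the wings overlapped.

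The component c27122 was the most abundant of those below all forewings, and its replicates were close. It was at 220 and 211 summed FPKM in the hindwings, 622 and 585 in the knockout forewings, 679 and 636 in the wild-type forewings and 720 and 597 in the mosaic forewings. The 6 forewings spanned 585 to 720, and both hindwings lay far under that range. The difference between the knockout wings was -1.48 log2 units (SE 0.20, unadjusted p = 0.00045, adjusted p = 0.299, limma), and the row c27122_g1 carried nearly all of it, at 218 and 209 FPKM in the hindwings. Next by level were c5937 and c56571. The component c5937 was at 54.8 and 58.8 summed FPKM in the hindwings and between 12.01 and 26.3 in the 6 forewings (difference 1.59, SE 0.37, adjusted p = 0.538, limma). The component c56571 was at 12.7 and 1.80 in the hindwings, 27.3 and 31.4 in knockout forewings and 70.8 and 76.9 in the wild-type forewings (difference -2.29, SE 0.72, adjusted p = 0.697, limma).

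Among components above 0 in all 4 knockout libraries and with an unadjusted p under 0.01, c18819 and c26066 had the largest positive differences and c20176 and c59128 the largest negative ones. The component c26066 was at 35.1 and 32.5 summed FPKM in the hindwings, 2.16 and 4.44 in knockout forewings and 3.93 and 7.95 in the wild-type forewings (difference 3.07, SE 0.43, adjusted p = 0.306, limma). The component c18819 was at 36.5 and 10.3 in the hindwings and 1.45 and 0.129 in the knockout forewings (difference 3.63, SE 0.80, adjusted p = 0.530, limma). Both stood above all 6 forewings. The component c59128 was at 0.352 and 0.733 in the hindwings, 5.49 and 18.9 in knockout forewings and 5.32 and 3.05 in the wild-type forewings (difference -2.89, SE 0.61, adjusted p = 0.530, limma).

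**Figure D4:**
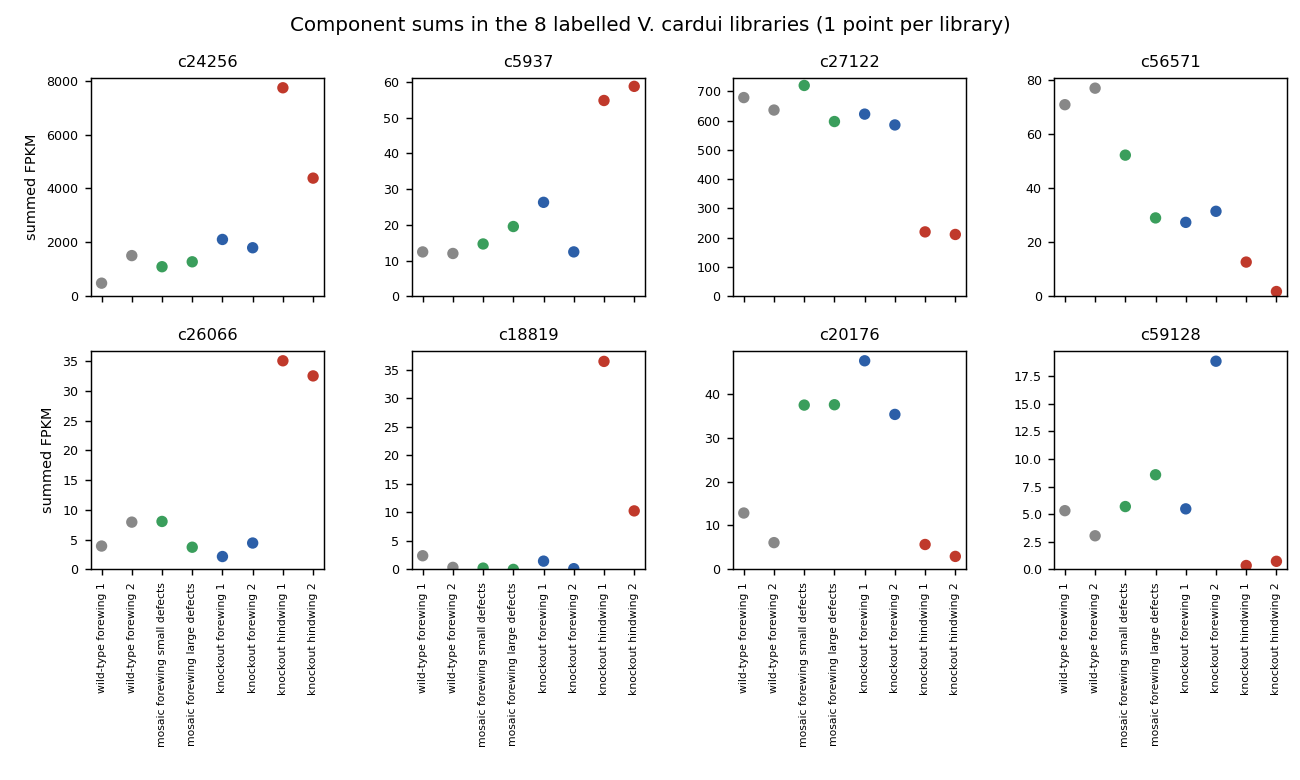
Summed FPKM (vertical axes, each from 0) of 8 components in the 8 labelled V. cardui libraries, 1 point per library. Grey points are wild-type, green mosaic and blue knockout forewings, and red points are knockout hindwings. The hindwings stand apart from all 6 forewings in every panel but c20176, where wild-type forewing 2 at 6.09 is close to hindwing 1 at 5.67.

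Some components that stood above all forewings also differed between the hindwings. In 8 of the 38 components hindwing 1 was at least 1 log2 unit above hindwing 2, and in 3 the reverse held. Among the 57 components below all forewings these counts were 4 and 2. Over all tested rows, 4035 of 17400 differed that much between the hindwings, in either direction. Such differences were thus not particular to this group. The 8 were at 4.83 to 50.3 summed FPKM in hindwing 1 and at 1.61 to 10.3 in hindwing 2, with ratios of 2.88 to 5.88. They include c18819, and they were grouped after the values were seen. Together they summed to 153 FPKM in hindwing 1 and 37.2 in hindwing 2, to 3.20 and 0.937 in the knockout forewings, and to 6.82 and 0.991 in the wild-type forewings. Wild-type forewing 1 was above wild-type forewing 2 in 6 of the 8, with no forewing above 2.40 summed FPKM in any of them. The share over all components was not counted. Wild-type forewing 1 also had more rows of the whole table above 0, at 31112 against 26584. Which cells these transcripts come from was not tested, since no marker could be named.

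The largest differences among abundant rows came mostly from hindwing 2. The row c27274_g3 was at 5.09 and 4.68 FPKM in the knockout forewings, 11.8 FPKM in hindwing 1 and 1030 FPKM in hindwing 2. The wild-type forewings stood at 300 and 413 FPKM and the mosaics at 204 and 256 FPKM. Hindwing 1 was 1.07 log2 units above the higher knockout forewing but below all of these, and hindwing 2 was above even the wild type. The difference of the group means was 4.29 log2 units (SE 1.94, adjusted p = 0.735, limma), and 1.12 without hindwing 2. The row c27274_g2 of the same component was at 10.7 and 14.3 FPKM in the knockout forewings, at 24.9 and 1040 FPKM in the hindwings and at 880 and 1711 FPKM in the wild-type forewings. In the other direction c27782_g2 was at 1145 and 1009 FPKM in the knockout forewings, 799 FPKM in hindwing 1 and 9.85 FPKM in hindwing 2. Its difference was -3.53 log2 units (SE 2.11, adjusted p = 0.735, limma), and -0.43 without hindwing 2. The row c28352_g1 was at 291 and 458 FPKM in the knockout forewings, 253 FPKM in hindwing 1 and 5.89 FPKM in hindwing 2, a difference of -3.13 log2 units, or -0.53 without hindwing 2.

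Hindwing 2 stood at least 1 log2 unit above the other 3 knockout libraries in 50 abundant rows and below them in 55, counts that were 2 and 1 for hindwing 1, 1 and 0 for forewing 1 and 12 and 0 for forewing 2. The 55 lower rows held 0.346% of total FPKM in hindwing 2, against 2.48% in hindwing 1 and 2.46% and 2.19% in the knockout forewings. The 50 higher rows held 4.62% in hindwing 2 and 2.05% in hindwing 1. Some of the same rows separated the wild-type forewings, whose values did not enter the choice. Wild-type forewing 2 was at least 1 log2 unit below wild-type forewing 1 in 17 of the 55 lower rows (30.9%), and in 55 of all 830 abundant rows (6.63%). It was above wild-type forewing 1 in 19 of the 55, by at least 1 log2 unit in 5, and in 547 and 65 of the 830. Across the 55 rows the difference between the hindwings and that between the wild-type forewings correlated at Pearson's r = 0.72, across the 50 higher rows at 0.12 and across all 830 at 0.28. These are descriptions over rows that share libraries. The 55 rows include the 10 extreme rows described next, and r was not computed without them.

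A group of 10 rows from 9 components was extreme in both pairs, at least 4 log2 units lower in hindwing 2 than in hindwing 1 and at least 2 log2 units lower in wild-type forewing 2 than in wild-type forewing 1, limits chosen after the values were seen. It includes c27782_g2 and c22605_g1, the pair of abundant rows in which hindwing 2 stood furthest below the other knockout libraries. The 10 rows summed to 12860 FPKM in hindwing 1 and 301 FPKM in hindwing 2, and to 7620 and 1164 FPKM in the wild-type forewings. In the knockout forewings they summed to 12230 and 8841 FPKM and in the mosaic forewings to 8904 and 10630 FPKM. The row c22605_g1 was at 885 and 11.1 FPKM in the hindwings, 463 and 67.7 FPKM in the wild-type forewings and 1117 and 760 FPKM in forewings labelled as knockouts. By this choice the libraries low in these rows were 1 knockout hindwing and 1 wild-type forewing, and their replicates were not low. Taken singly, the hindwing limit was met by 13 abundant rows and the wild-type limit by 27, these 10 included in both.

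**Figure D5:**
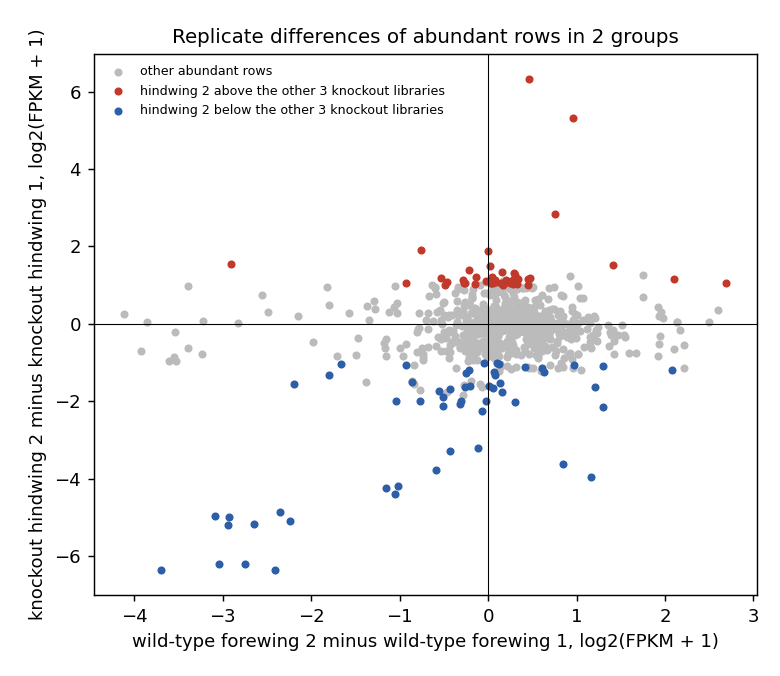
Difference between the 2 knockout hindwings (vertical axis) and between the 2 wild-type forewings (horizontal axis), each replicate 2 minus replicate 1 in log2(FPKM + 1), for the 830 abundant rows. Red points are the 50 rows in which hindwing 2 stood above and blue points the 55 in which it stood below the other 3 knockout libraries. The 10 rows at or under -4 on the vertical and -2 on the horizontal axis form the group at the lower left.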

How the data were processed

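Per the file headers and labels, the authors deposited FPKM values per assembly row and library; the submitters' processing notes name Bowtie2. Not given in the sources used here are its version, the quantification program, the assembly and any scaling. Each library's values, rescaled to a common total, were multiples of 0.01, so the deposited FPKM carry a factor per library (totals 796362 to 1199017). FPKM is not a count, so no count model was used, and depth was only estimated from low values. Two-sided limma 3.58.1 (R 4.3.3) was fitted to log2(FPKM + 1), a scale that understates changes of low rows, over 6 melanin-stage libraries (group means, trended moderation, Benjamini-Hochberg over all tested rows, called at 0.05). Wild-type forewings entered for the estimate of spread. The same fit was run on component sums. The procedure was tested on simulated data. Named were, per direction, at most 2 rows or components: those of smallest p, the abundant rows whose groups did not overlap with the largest difference, components with p under 0.01 with the largest difference, and rows at 0 in one wing with the highest minimum in the other. The most abundant components apart from all 6 forewings, the 10 most abundant components and the rows of hindwing 2 were named after their values were seen. The comparison, lists and rules were chosen with earlier results of these data known. The table holds 2 further columns, whose names read as wild-type hindwings, that match no labelled sample. They were not used. The p-values measure the spread between the deposited replicates.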

Additional observations from a re-analysis of the deposited data

How the results depend on the processing

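The wing contrast gave 0 called rows and 0 called components under every planned setting other than the omission of libraries, namely median-of-ratios or quantile scaling, a pseudocount of 0.1, a minimum mean of 5 FPKM or none, moderation without trend, the 4 compared libraries alone, and the replicate number as a block. The replicate block had 0 calls and 1011 rows at an unadjusted p under 0.05, in the fit of 6 libraries. With the 4 compared libraries alone, a block by equal numbers gave 0 calls and 722 such rows and the crossed pairing 0 calls and 1488. Deviations of equally numbered libraries correlated at 0.02, -0.03 and -0.11 between groups over all rows. Over the 830 abundant rows they correlated at -0.21 between wild-type and knockout forewings, 0.28 between the hindwings and the wild-type forewings, and -0.07 between the knockout wings. Not every pair exceeded 0.1, and the labels do not pair the numbers, so they were not treated as pairs. Leaving out 1 library gave 0 to 227 called rows and 0 to 184 called components, with calls only when forewing 2 was left out. The contrast with all forewings gave 28 rows and 14 components, all lower, with a pseudocount of 0.1, and 3 components with moderation without trend; the cause was not tested. The 524 separated rows became 127 at a mean of at least 5 FPKM and 1207 to 2825 without 1 library, the 406 separated components became 929 to 2139 without 1 library, and the 298 rows at 0 in one wing became 12 and 690 to 1236, since a higher mean admits fewer rows and a single library is easier to separate. Components with opposed rows numbered 1 with a pseudocount of 0.1 and 3 to 29 without 1 library. The 95 components apart from all 6 forewings became 151 with a pseudocount of 0.1, 29 at a mean of at least 5 FPKM, and 318 to 803 without 1 hindwing. The 105 abundant rows of hindwing 2 became 376 at a mean of at least 20 FPKM, and with median-of-ratios scaling 139, of which 97 were above and 42 below. The share of the 10 most abundant rows, -0.58 percentage points in the hindwing, was 0.34 for 50 rows and -2.42 to 1.27 without 1 library. Of 181 values under alternatives, for 13 of the named rows and components, 0 changed sign. The wings did not overlap in any of the 13, so leaving out 1 library could not change a sign. Others named above, such as c24256, c27122 and c22605_g1, were not among the 13.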
